A study of Mus musculus with 15 samples.

Results

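The dorsal forebrain of the mouse embryo is dissected next to the choroid plexus of the lateral ventricle, and a dissection can carry some of that tissue with it. The 15 mRNA-seq libraries of E18 dorsal forebrain were divided by a single transcript measure, the gene-level abundance of Ttr (transthyretin, the thyroid hormone carrier that choroid plexus epithelium makes in bulk). The 6 libraries with Ttr above 100 TPM (a per-length share of the library's transcripts) are called Ttr-high and the other 9 Ttr-low. Ttr chose the classes, so it was left out of the comparison of genes between them. The embryos were C57BL/6J, collected on embryonic day 18 from dams that carried pumps releasing arginine vasopressin (AVP) or saline, with 4 AVP male, 3 AVP female, 4 saline male and 4 saline female libraries. A further AVP female was left out by the study and is not analysed here. Brains of the same sex and treatment came from separate litters according to a figure legend of the study, while a male and a female could share a litter. The labels do not tie libraries to litters, so no such pairing was used and p-values measure the spread between these libraries. Depth per library is unknown from the files, since TPM keeps no read totals.

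Choroid plexus epithelium is a sheet of secretory, ciliated cells that arises from the dorsal midline of the telencephalon beside the cortical hem. It moves ions, water and nutrients such as folate from blood into cerebrospinal fluid, and it secretes carrier proteins and growth factor modulators into the ventricles. Its cells sit on a stroma of fibroblasts, macrophages and fenestrated vessels.

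In 1 library the sex-linked transcripts went against the gender label. Xist stood at 265.7 TPM in saline male 12 and its 4 Y-linked genes (Ddx3y, Eif2s3y, Kdm5d and Uty) summed to 0.489 TPM, whereas the other 7 male libraries had at most 1.13 TPM of Xist and at least 102.0 TPM of the Y-linked genes, and the 7 female libraries had 173.7 to 294.5 TPM of Xist. It was analysed under its label, it is Ttr-low, and the main counts are also given without it. The sample numbers in the GEO descriptions, which also head the columns of the deposited table, form a lower and a higher run, and what separates the runs is not given in the sources used here. Of the 7 lower-numbered libraries 5 were Ttr-high, against 1 of the 8 higher-numbered ones, so class and run overlap in large part.

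The levels of Ttr that chose the classes lay far apart. In the Ttr-high libraries Ttr ran from 559.4 TPM in saline male 4 through 614.8, 680.3, 922.4 and 1348 TPM to 2197 TPM in AVP female 3. In the Ttr-low libraries it ran from 1.53 TPM in saline male 13, with a median of 5.65 TPM, to 24.4 TPM in saline female 14. The values on either side of the threshold were thus 559.4 TPM and 24.4 TPM, and no library lay between them. At its highest Ttr made up 0.220% of a library's TPM, so its own share moved the other genes' values very little.

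The other markers were then read against the label. Folr1 (folate receptor alpha, chr7:101858331-101870788 in GRCm38), which carries folate across the choroid epithelium, was at 8.88 TPM at the lowest, 13.7 TPM at the median and 41.9 TPM at the highest in Ttr-high libraries. In Ttr-low libraries it was at 0, 0.184 and 1.06 TPM. Clic6 (a chloride intracellular channel protein, chr16:92485736-92541243) had 2.13, 3.33 and 8.73 TPM against 0.155, 0.321 and 1.35 TPM. Neither gene overlapped between the classes. Kl (Klotho, a membrane protein of choroid plexus and kidney) was low everywhere, at 0.182, 0.426 and 0.599 TPM against 0.146, 0.248 and 0.332 TPM, and its classes overlapped. The label rests on Ttr, which chose the classes and so cannot support it, and on Folr1 and Clic6. These 2 genes averaged 0.427 and 0.524 TPM in Ttr-low libraries. They reached the mean of 1 TPM required for testing only through the Ttr-high ones. Kl did not separate the libraries.

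**Figure D1:**
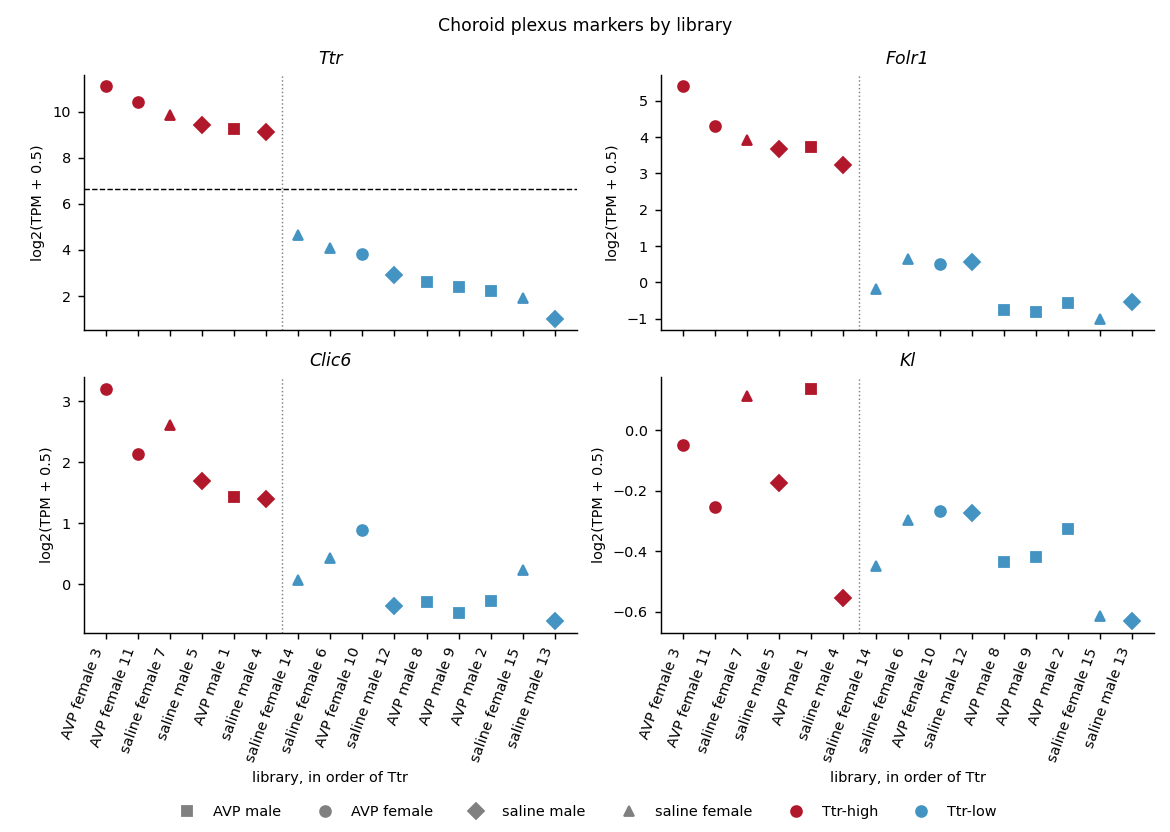
Levels of Ttr, Folr1, Clic6 and Kl on the log2(TPM + 0.5) scale (vertical axes) in each of the 15 libraries, ordered from the highest to the lowest Ttr; colour gives the Ttr class, symbol shape gives the group, and the dashed line in the Ttr panel is the 100 TPM threshold. Folr1 and Clic6 drop at the same place as Ttr, from at least 8.88 and 2.13 TPM to at most 1.06 and 1.35 TPM, while Kl overlaps between the classes.

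A small set of genes followed Ttr, and 7 of its 11 members stood on the choroid epithelium lists. Those lists were chosen with earlier results of these data known, so the overlap is no independent evidence. Across the 15585 genes with a mean of at least 1 TPM, 11 were called higher in Ttr-high libraries by limma with Benjamini-Hochberg adjustment, which is 0.0706% of the genes tested, with treatment and gender labels as covariates. None was called lower (0%), although 1072 genes had an unadjusted p under 0.05 in that direction and 151 in the other. Those 2 counts depended on scaling, because the median log2 difference of all genes was -0.07. With median-of-ratios scaling they became 414 lower and 542 higher, and the calls were 13 higher and 0 lower. Without saline male 12 they were also 13 higher and 0 lower. Of the 11 genes 9 averaged under 1 TPM in the Ttr-low libraries and so passed the expression minimum only through the Ttr-high ones; they had to differ to be tested, and the number called is a description. In bulk tissue, fewer cells of a type and less RNA per cell cannot be told apart.

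**Figure D2:**
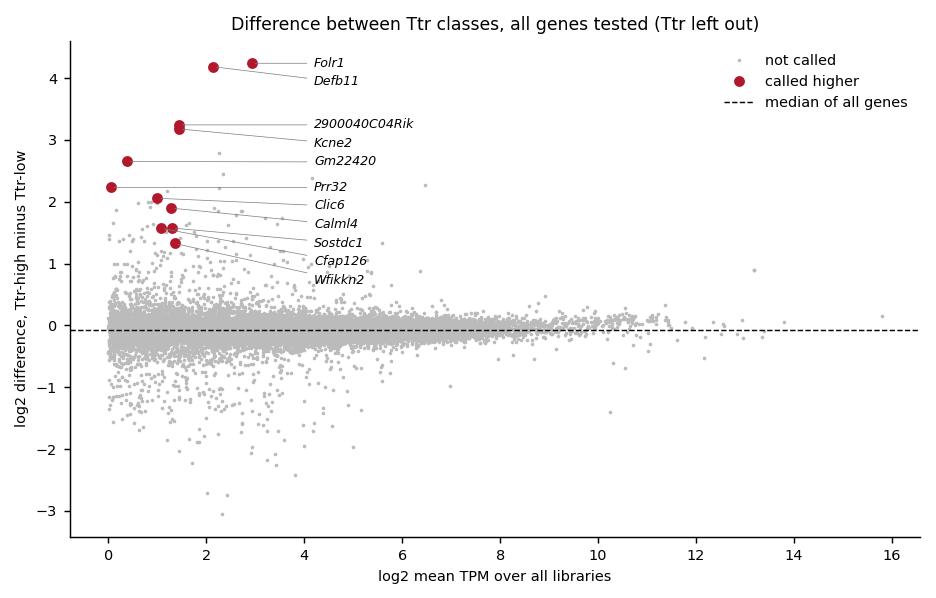
Difference between the Ttr classes (vertical axis, log2 of Ttr-high minus Ttr-low) against mean abundance (horizontal axis, log2 mean TPM over the 15 libraries) for the 15585 genes tested, each point a gene, with the 11 called genes named and the median of all genes as a dashed line. The called genes lie between 1.33 and 4.24 on the vertical axis, all at low mean abundance, and none of the genes below the line was called.

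Genes for the transport of ions and nutrients were among those with the largest differences. The difference of Folr1 was 4.24 ± 0.31 (log2, SE; adjusted p = 1.4e-05, limma), and its mean TPM was 42.9 times higher in Ttr-high libraries. Kcne2 (chr16:92292389-92298129), an accessory subunit of voltage-gated potassium channels at the apical membrane, ran from 3.003 TPM through a median of 5.05 TPM to 14.9 TPM in Ttr-high libraries and from 0 through 0.0783 to 0.495 TPM in Ttr-low ones. Its log2 difference was 3.18 ± 0.25 (adjusted p = 2.2e-05, limma). Clic6 differed by 2.06 ± 0.18 (adjusted p = 6.3e-05, limma). Kcne2 and Clic6 lie on the same chromosome, with 187606 bases and 8 annotated genes between them, while the 11 genes together came from 10 chromosomes. Of the 22 tested members of the ion and water transport list Kcne2 and Clic6 were the 2 called higher, beside 0.0706% of all genes, and the list's median difference was 0.09. Both averaged under 1 TPM in the Ttr-low libraries and were among 3 of the 22 tested only through the Ttr-high ones.

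Kcne2 has a pair of annotated start sites, and the class difference sat at one of them. The transcript that begins at chr16 position 92292389 averaged 6.49 TPM in Ttr-high and 0.00409 TPM in Ttr-low libraries, and made 99.2% of the gene's Ttr-high total. The transcript that begins at position 92295616 averaged 0.0499 and 0.152 TPM. The bases just before both starts are shown because the 2 windows differ in use, together with the window of Prr32, a further called gene with a single transcript. Each is the 250 bases before a RefSeq start (GRCm38.p6, plus strand), with matches to 3 motifs in capitals.
Kcne2, upstream start, chr16:92292139-92292388: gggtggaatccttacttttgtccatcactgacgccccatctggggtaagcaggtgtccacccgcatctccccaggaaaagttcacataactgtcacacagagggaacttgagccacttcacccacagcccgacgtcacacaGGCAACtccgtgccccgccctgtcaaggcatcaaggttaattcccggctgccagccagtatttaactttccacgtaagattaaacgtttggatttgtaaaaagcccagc
Kcne2, downstream start, chr16:92295366-92295615: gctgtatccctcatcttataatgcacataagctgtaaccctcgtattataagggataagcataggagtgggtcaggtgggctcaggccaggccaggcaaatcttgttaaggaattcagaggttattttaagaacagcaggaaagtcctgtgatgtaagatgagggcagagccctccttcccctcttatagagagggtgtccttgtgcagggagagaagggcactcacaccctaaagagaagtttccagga
Prr32, chrX:45090654-45090903: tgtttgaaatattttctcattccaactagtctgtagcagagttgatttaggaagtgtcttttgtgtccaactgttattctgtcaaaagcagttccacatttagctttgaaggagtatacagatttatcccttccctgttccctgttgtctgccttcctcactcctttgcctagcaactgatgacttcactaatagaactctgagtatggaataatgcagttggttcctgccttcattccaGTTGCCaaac

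The motifs were TAATCC for OTX factors, GTTGCC for part of the site of RFX factors and TGTTTAC for FOX factors, each searched on both strands, with no overlap among the matches found. The RFX motif ends 104 bases before the upstream Kcne2 start, on the opposite strand, and 5 bases before the Prr32 start, on the gene's strand. The downstream Kcne2 window holds none of the 3 motifs. RefSeq windows were at hand for 7 of the 11 called genes, 10 windows in all. The RFX motif was in 4 of these 10, one each for Defb11, Kcne2, Prr32 and Wfikkn2, and in 10.4% of all 32851 windows. The OTX motif, in 6.25% of all windows, and the FOX motif, in 3.17%, were in none of the 10. A match is a stretch of letters in a window and was not tested as a binding site.

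The list of choroid epithelium carriers and secreted proteins held the most called genes of any list. Of the 38 tested members of that list 5, Folr1 among them, were called higher and none lower, beside 0.0706% called higher of all genes. The list median was 0.22 beside -0.07 for all genes, and 6 of the 38 were tested only through the Ttr-high libraries. Prr32 (chrX:45090904-45092791) encodes a proline-rich protein and had 0.986, 2.49 and 4.93 TPM as lowest, median and highest value in Ttr-high libraries, against 0, 0.0551 and 0.167 TPM. Calml4 (chr9:62858080-62875921), a calmodulin-like protein, had 2.75, 3.50 and 10.1 TPM against 0.457, 0.610 and 1.42 TPM. Their log2 differences were 2.23 ± 0.25 and 1.90 ± 0.25 (adjusted p = 0.00082 and 0.0065, limma). Prr32 fell under the expression minimum, and was not tested, without AVP female 3, saline male 5, saline female 7 or AVP female 11. With any other library left out its adjusted p was at most 0.0030 (limma).

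Both remaining members encode secreted antagonists of growth factors. Sostdc1 (chr12:36314139-36318452), which inhibits BMP and Wnt signalling, had 2.85, 4.05 and 8.03 TPM in Ttr-high libraries against 0.561, 1.05 and 2.17 TPM in Ttr-low ones. Wfikkn2 (chr11:94235956-94246005), which binds GDF8 and GDF11, had 2.59, 4.03 and 7.99 TPM against 0.750, 1.28 and 1.75 TPM. The log2 differences were 1.58 ± 0.23 and 1.33 ± 0.20 (adjusted p = 0.012 and 0.019, limma). These were the 2 called genes that averaged more than 1 TPM in the Ttr-low libraries, at 1.12 and 1.33 TPM. Both calls were lost without saline male 5 or without saline female 7, with adjusted p of at most 0.080 for Sostdc1 and 0.13 for Wfikkn2 (limma) over all libraries left out. With the run of sample numbers added both had an adjusted p of 0.14 (limma). Wfikkn2 was also lost without saline female 6 and with no expression minimum (adjusted p = 0.052 in both, limma).

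Defb11 and 2900040C04Rik were called although they stood on none of the lists. Defb11 (chr8:21905376-21906412), of the beta-defensin family of small antimicrobial peptides, had 6.21, 8.88 and 17.4 TPM as its lowest, median and highest value in Ttr-high libraries. In 7 of the 9 Ttr-low libraries it was listed at 0, and AVP male 2 and saline male 12 had 0.394 and 0.408 TPM. Its difference was 4.19 ± 0.24 (log2, SE; adjusted p = 1.1e-06, limma), the smallest adjusted p of all genes. Defensin genes are close copies of each other, so how reads were split among them is uncertain. The long noncoding RNA 2900040C04Rik (chr14:76251457-76252327) had 2.82, 5.20 and 12.8 TPM against 0, 0.156 and 0.429 TPM, a difference of 3.24 ± 0.26 (adjusted p = 2.7e-05, limma).

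Cfap126 (Flattop, chr1:171113918-171126967), which positions the basal bodies of cilia, was the 1 motile cilia gene called among 38 tested, beside 0.0706% called higher of all genes. It averaged 0.924 TPM in the Ttr-low libraries and was among 2 of the 38 tested only through the Ttr-high ones. It had 2.07, 3.46 and 6.71 TPM in Ttr-high libraries against 0.413, 0.811 and 1.87 TPM, and differed by 1.57 ± 0.23 (adjusted p = 0.012, limma). The call was lost without saline male 5 (adjusted p = 0.080, limma) and with the run of sample numbers added (adjusted p = 0.14, limma). None of the other 37 was called, and the list's median was 0.01. Dynlrb2, a dynein light chain, had 1.98 to 4.31 TPM against 0.740 to 6.84 TPM. Foxj1, the transcription factor of motile ciliogenesis, named here after its values were seen, had 2.94 to 6.24 TPM against 3.10 to 8.25 TPM. The summed TPM of the cilia list ran from 175.1 to 258.9 in Ttr-high and from 186.9 to 257.3 in Ttr-low libraries.

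The eleventh called gene, Gm22420 (chr17:26580802-26580927), is a short predicted RNA annotated as a miRNA. Its call was lost without any 1 of AVP male 1, saline male 4, saline male 5, saline female 7 or AVP female 11 (adjusted p of at most 0.11, limma) and with the run of sample numbers added (adjusted p = 0.14, limma). It was listed at 0 in all 9 Ttr-low libraries and also in AVP female 3, the library with the most Ttr, and at 3.004 to 4.449 TPM in the other Ttr-high libraries. Its classes overlap for that reason. Abundance per length is coarse for so short a transcript.

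**Figure D3:**
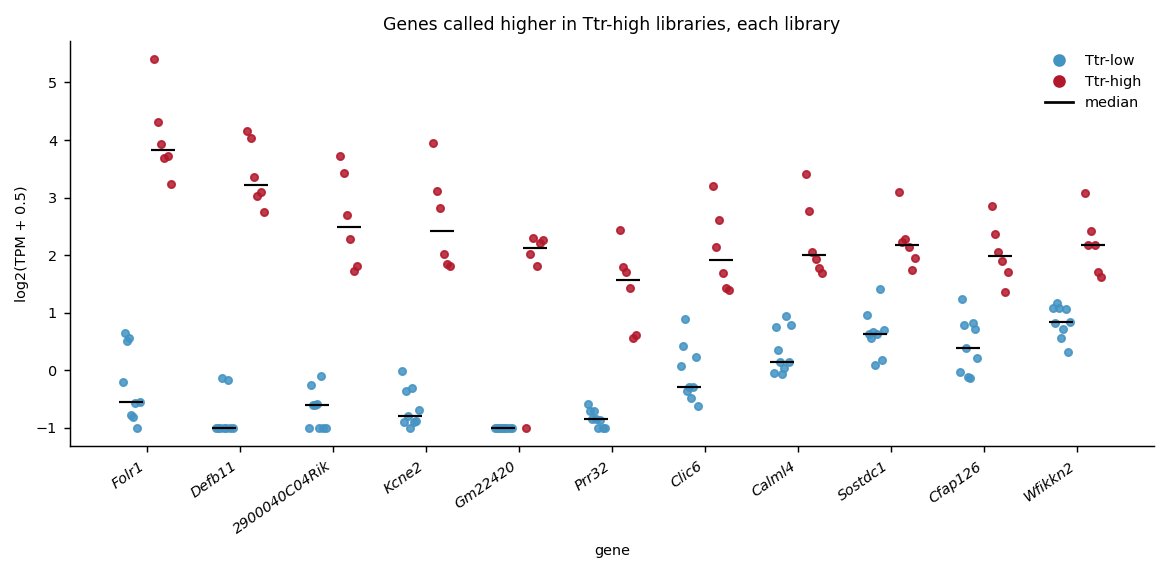
Levels of the 11 called genes on the log2(TPM + 0.5) scale (vertical axis) in each library, blue for the 9 Ttr-low and red for the 6 Ttr-high libraries, with class medians as black bars. In 10 of the 11 genes every red point lies above every blue one, beside 11 (0.0706%) of all 15585 genes tested. The genes shown were called on this same difference, so the count is a description. In Gm22420 AVP female 3 lies with the Ttr-low libraries at 0.

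Within the Ttr-high class Ttr spanned 3.93-fold. AVP female 3 had the highest level of 10 of the 11 genes as well as of Ttr, and AVP female 11, second in Ttr, was second for 7 of them. Expressed as a share of Ttr in the same library, Calml4 was the steadiest, from 0.396% to 0.491%. Kcne2 was at 0.504% to 0.709%, Folr1 at 1.44% to 2.06% and Defb11 at 0.790% to 1.31%. Clic6, Prr32, Sostdc1 and Wfikkn2 spanned from 1.95 to 2.09 times between the lowest and the highest library. Genes that were not called lay on both sides of these, with Otx2 and Aqp1 at 1.67 and 1.66 times and Enpp2 at 3.55 times. Cldn2, under the mean of 1 TPM required for testing, spanned 4.08 times. These ratios describe 6 libraries and were not tested.

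**Figure D4:**
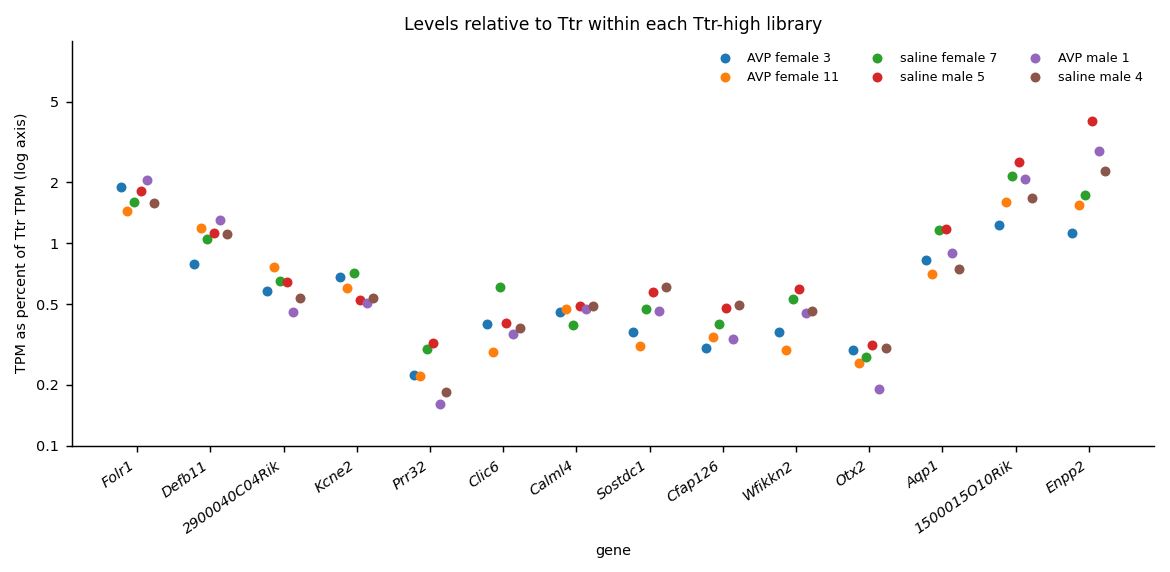
TPM of each gene as a percent of Ttr TPM in the same library (vertical axis, log scale) for the 6 Ttr-high libraries, each a colour; the first 10 genes are called, the last 4 are not. Calml4 and Kcne2 form tight clusters (0.396% to 0.491% and 0.504% to 0.709%), and Enpp2 is the most spread, from 1.13% to 4.01%.

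Other choroid epithelium genes were not called. The closest to the threshold was 1500015O10Rik (Ecrg4, a secreted peptide precursor), with 9.39, 18.4 and 27.0 TPM against 5.37, 8.41 and 11.03 TPM. Its difference was 1.06 ± 0.18 (adjusted p = 0.052, limma), and it was called under quantile normalization, under median-of-ratios scaling and without any one of 3 libraries. Car12, a carbonic anhydrase, differed by 1.13 ± 0.22 (adjusted p = 0.15, limma), with 2.15 to 5.97 TPM against 0.601 to 2.23 TPM, so that a single pair of values overlapped. Aqp1, the apical water channel, had 4.18, 8.77 and 18.3 TPM against 2.31, 3.50 and 6.71 TPM (log2 difference 1.05 ± 0.27, adjusted p = 0.61, limma). Kcnj13 and Car14, another potassium channel and another carbonic anhydrase, differed by 0.81 and 0.80 with the same adjusted p.

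Otx2, the homeobox factor on which choroid plexus formation depends, had 1.16, 2.34 and 6.51 TPM in Ttr-high libraries and 0.150, 0.416 and 3.40 TPM in Ttr-low ones, a difference of 1.37 ± 0.27 (adjusted p = 0.18, limma). The 3.40 TPM belonged to AVP female 10, whose Ttr was 13.9 TPM, whose Folr1 was 0.927 TPM and whose Clic6, at 1.35 TPM, was the highest of the Ttr-low class. Without that library Otx2 was called. The other choroid and roof plate factors did not reach the threshold. Of the 13 tested none was called, beside 0.0706% called higher of all genes. Their median difference was 0.07, with Msx1 at 0.49 ± 0.29.

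Further epithelial genes lay below the minimum of 1 mean TPM and were named after their values were seen. Krt18 and Krt8, the keratins of simple epithelia, had 0.810 to 5.04 TPM and 0.302 to 2.26 TPM in Ttr-high libraries, against at most 0.329 and 0.234 TPM. Cldn2, a pore-forming claudin of leaky epithelia, had 0.973, 1.40 and 2.06 TPM against 0.0181, 0.169 and 0.288 TPM. The bicarbonate transporter Slc4a5 had 0.336 to 2.56 TPM against at most 0.0753 TPM, the frizzled-related Mfrp 0.490 to 2.05 TPM against at most 0.248 TPM, and the lactate transporter Slc16a8 0.122 to 0.809 TPM against at most 0.0951 TPM. These 6 were picked for keeping the classes apart, so that trait is no evidence. Of the 94 genes on the choroid epithelium lists, tested or not, 14 were apart on the higher side. Among all 15585 genes tested it was 11 (0.0706%). Epcam and Krt19, also under the minimum, overlapped, Epcam with 0.0637 to 0.453 TPM against 0.0944 to 0.447 TPM. In a fit with no minimum, over 32967 genes, Krt18, Cldn2 and Mfrp were called, together with Klk4 and Otx2os1 (15 genes higher and 0 lower, limma), whereas Slc4a5 had an adjusted p of 0.070. On the junction and cytoskeleton list 0 of the 11 tested genes were called, beside 0.0706% called higher of all genes. Their median difference was 0.11.

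Many genes that are textbook features of choroid plexus did not separate the libraries, and the following were named after their values were seen. Enpp2 (autotaxin) had 12.7, 19.2 and 27.3 TPM against 14.7, 16.3 and 31.9 TPM. Igf2, a growth factor of choroid plexus and meninges, had 61.5 to 209.7 TPM against 76.0 to 185.0 TPM. The chloride importer Slc12a2 had 12.7 to 16.5 TPM against 12.4 to 21.6 TPM. These genes were abundant in the Ttr-low libraries too. Over the 3 choroid epithelium lists, 94 genes without Ttr, 71 were tested, 9 of them only through the Ttr-high libraries, and 7 were called higher and none lower, beside 0.0706% called higher of all genes. Their median was 0.13.

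**Figure D5:**
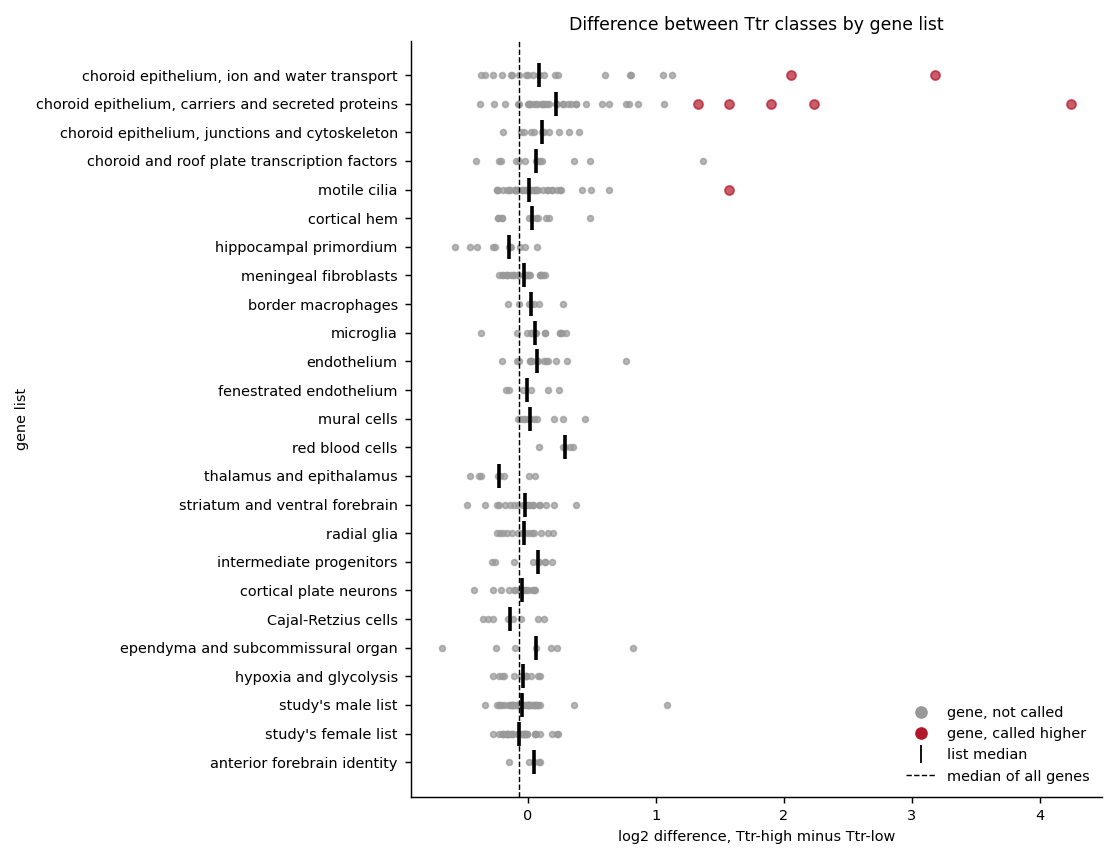
Log2 difference between the Ttr classes (horizontal axis) of every tested gene in each gene list with at least 5 tested members (vertical axis), with the list median as a black bar and the median of all genes as a dashed line. Red points, the called genes, occur in the 2 choroid transport and secretion lists and once in the cilia list.

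Other cells and regions that a dissection could hold, and a list of hypoxia and glycolysis genes, were examined with the same fit. Over these 17 lists, with 197 tested genes, none was called in either direction, beside 0.0706% called higher and 0% lower of all genes. At that rate a list of this size would seldom hold a call, so the count alone says little. The list medians ran from -0.22 (thalamus and epithalamus) to 0.29 (red blood cells). The stroma of the plexus was read from meningeal fibroblasts, border macrophages and fenestrated endothelium. The fibroblast genes summed to 179.6 to 977.8 TPM in Ttr-high and 343.7 to 1110 TPM in Ttr-low libraries, with Dcn at 10.5 to 65.9 TPM against 28.7 to 68.7 TPM. The macrophage genes summed to 22.5 to 88.3 TPM against 32.9 to 82.1 TPM. Plvap, the diaphragm protein of fenestrated vessels, had 1.91, 2.46 and 3.24 TPM against 1.13, 1.96 and 3.12 TPM. All these ranges overlapped. Red blood cell genes had the highest median of any list, with Hbb-bs at 1211 to 6768 TPM against 1035 to 4862 TPM, an overlap of nearly the whole range, and their part in the other results was not tested.

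The neighbours of the plexus along the midline were read in the same way. Of the 11 cortical hem genes tested none was called, beside 0.0706% called higher of all genes, and their median was 0.03. Rspo3, a secreted Wnt enhancer of the hem named after its values were seen, had 7.86 to 13.7 TPM against 6.63 to 13.4 TPM. The 11 hippocampal genes had a median of -0.15, and Nrp2, a semaphorin receptor, had 5.72 to 30.0 TPM against 6.95 to 49.8 TPM. Cajal-Retzius genes had a median of -0.13, with Reln at 52.2 to 84.5 TPM against 59.8 to 106.6 TPM. Cortical plate neuron genes had a median of -0.05, and Tbr1, a deep-layer factor, ran from 86.0 to 104.0 TPM against 90.3 to 119.5 TPM.

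Anterior and posterior identity genes were then read in both classes. Of the 5 anterior forebrain genes 0 were called, beside 0.0706% called higher of all genes, and their median difference was 0.05. None of 39 Hox genes reached 1 TPM on average, 9 were at 0 in every library, and their summed TPM ran from 0.556 to 1.203 against 0.423 to 1.04. Hox genes mark the hindbrain, where a separate choroid plexus forms, and their sums overlapped between the classes.

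In the lower direction no gene was called, yet a few stood apart. Among the genes tested 9 (0.0577%) were lower in every Ttr-high than in every Ttr-low library and 11 (0.0706%) were higher. Those named here were chosen after their values were seen. Ank2, an ankyrin of axons, had 91.9 to 106.8 TPM against 111.2 to 143.9 TPM, and Gjd2, a neuronal gap junction protein, had 3.63 to 4.97 TPM against 5.20 to 8.87 TPM (log2 differences -0.29 ± 0.07 and -0.55 ± 0.13, adjusted p = 0.61 and 0.44, limma). With median-of-ratios scaling 0 of these 9 were still apart and a different gene, C030015A19Rik, was the 1 on the lower side. On the higher side all 11 were still apart, among 16. Sulf1, a sulfatase that edits heparan sulfate, was on the higher side with 5.18 to 11.4 TPM against 2.41 to 4.97 TPM (0.64 ± 0.19, adjusted p = 0.61, limma).

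The question that the classes raise for the study is whether choroid plexus content went with treatment. Ttr-high libraries were 3 of 7 with AVP and 3 of 8 with saline, and 3 of 7 female and 3 of 8 male (Fisher's exact test, two-sided, p = 1 for both). By run of sample numbers it was 5 of 7 against 1 of 8 (p = 0.041, adjusted p = 0.12 over the 3 tests, Fisher's exact test). Ttr itself had a median of 13.9 TPM (4.19 to 2197) with AVP and 20.5 TPM (1.53 to 922.4) with saline. The log2 difference was 0.61 over all libraries (exact permutation test, two-sided, p = 0.74), -1.49 in males (exact permutation p = 0.71) and 3.33 in females (exact permutation p = 0.26), with an adjusted p of 0.74 for all 3.

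In the females Ttr stood at 13.9, 1348 and 2197 TPM in the AVP libraries and 3.23, 16.6, 24.4 and 922.4 TPM in the saline libraries. The treatments overlapped, and these 3 AVP libraries include both of the highest Ttr levels of the series. In the males the AVP libraries had 4.19, 4.82, 5.65 and 614.8 TPM and the saline libraries 1.53, 6.98, 559.4 and 680.3 TPM. A comparison of treatments within females therefore sets 2 of 3 Ttr-high libraries against 1 of 4.

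The class was then added to the treatment comparison, in a single fit over males and females with gender as a covariate. Without the class, AVP libraries had Folr1 0.46 higher than saline on the log2 scale, and with it 0.22 higher. For Defb11 the values were 0.57 and 0.33, and for 2900040C04Rik 0.63 and 0.44. The largest shift of any gene was the 0.24 of Folr1. None of the 15585 genes was called for AVP without the class (0%, limma, 1576 at unadjusted p under 0.05) or with it (0%, 1475). The study analysed males and females separately and gave a list of genes for AVP in each, unlike the pooled fit here. No treatment fit with the class was made within females alone, so their uneven classes were not allowed for separately. Of 42 tested members of the male list and 31 of the female list, 0 were called for the class. Their medians were -0.05 and -0.07, and 0.0706% of all genes were called higher for the class. Adding the class moved no gene of these lists by more than 0.063 or 0.016. The class was spread almost evenly over the treatments (3 of 7 AVP and 3 of 8 saline libraries). Each shift was therefore a small fixed fraction of the gene's class difference, and its size says nothing further about these lists. These lists were chosen on these samples and are no independent evidence. In the male list Capn11, a calpain protease, had the largest class difference, 1.09 ± 0.58 (adjusted p = 0.61, limma), with 0.0202 to 11.4 TPM against 0 to 6.19 TPM.

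A test of the interaction of class and AVP called 0 genes (0%, limma, 921 at unadjusted p under 0.05). For Folr1 the class difference was 0.80 larger with AVP and for Clic6 -0.35 (adjusted p = 0.72 and 0.78, limma). The vasopressin receptors were near 0 in both classes. Avpr1a had 0.0599 to 0.613 TPM in Ttr-high and 0.252 to 0.826 TPM in Ttr-low libraries, Avpr1b reached at most 0.0265 and 0.322 TPM, Avpr2 was listed at 0 in every library, and the oxytocin receptor Oxtr had 0.282 to 1.23 TPM against 0.616 to 1.82 TPM. All fell under the minimum for testing, and the ranges of the detected receptors overlapped between the classes.

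Because the runs differed in Ttr, the calls were repeated with the run allowed for. With the run as a further covariate 6 genes were called higher (Folr1, Defb11, Kcne2, 2900040C04Rik, Clic6 and Prr32) and 2 lower, Negr1 and Nrgn. The other 5 (Calml4, Cfap126, Sostdc1, Wfikkn2 and Gm22420) each had an adjusted p of 0.14 (limma). Within the lower-numbered run alone, an alternative added after seeing the data, with 5 Ttr-high and 2 Ttr-low libraries, Defb11 and Folr1 were called with 2 predicted genes, Gm23084 and Gm23205, and all 11 genes had a positive difference. In the higher-numbered run the sole Ttr-high library was AVP female 11, with 19.4 TPM of Folr1, 8.12 TPM of Kcne2 and 3.92 TPM of Clic6. Each value was above all Ttr-low libraries of that run. That had to be so, since these genes kept the classes apart over all libraries, and it says nothing further about the run.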

How the data were processed

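The authors trimmed reads with Trim Galore 0.4.1, per the submitters' processing notes, and quantified transcripts with kallisto 0.43.1 against GENCODE M16 (GRCm38), stranded; the deposited table holds TPM for 133849 transcripts in 15 libraries and no counts. Transcript TPM were summed to 53337 genes with GENCODE M21 names (404 transcripts without a match, 0.154% to 0.199% of TPM, were left out). Libraries were classed by Ttr above 100 TPM. Genes with a mean of at least 1 TPM over all libraries, Ttr excluded, were fitted with limma 3.58.1 (R 4.3.3) on log2(TPM + 0.5) with a mean-variance trend and treatment and gender labels as covariates; fold changes on that scale understate the change of low genes. Tests were two-sided, with Benjamini-Hochberg adjustment over all genes and a threshold of 0.05. The code was tested on simulated data. Class members and gene lists were chosen with earlier results of these data known. Genes were named by rule: the markers, up to 15 called genes per direction with classes apart, up to 6 tested genes per list by size of difference, Avpr1a, Avpr1b, Avpr2 and Oxtr, and promoters of up to 4 choroid genes. Others, Gm22420 and the genes under the minimum among them, were named after their values were seen. Alternatives covered scaling, expression minimum, pseudocount, covariates, subsets and each library left out. Promoter windows came from RefSeq (GRCm38.p6).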

Additional observations from a re-analysis of the deposited data

Results flagged for a closer look

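Each of the 11 called genes, Ttr and the summed TPM of each gene list were examined for a library standing apart from the rest of its Ttr class, by the size of its gap to the nearest value relative to the range of the class. Of 77 groups of values 2 had such a library, and chance alone would give about 3.85.

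Gm22420 was at 0 TPM in AVP female 3, while the nearest other Ttr-high library had 3.004 TPM and the highest 4.449 TPM. AVP female 3 also had the most Ttr, 2197 TPM, and the most of the other 10 called genes.

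The choroid epithelium ion and water transport list summed to 273.3 TPM in AVP female 11, against 362.8 TPM in the nearest other Ttr-high library and 399.7 TPM in the highest. In the same library Ttr was 1348 TPM, the second highest of the series.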

How the results depend on the processing

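All 11 called genes kept a positive difference under every alternative in which they were tested. The number called higher was 4 with at least 1 TPM required in 50% of the libraries and 1 with a mean of at least 5 TPM, both of which remove the low genes themselves. It was 6 with the run of sample numbers added, 7 at an adjusted p of 0.01, 1 in AVP libraries only, 9 in saline libraries only, 4 in male libraries only, 4 in female libraries only and, chosen after seeing the data, 4 in the lower-numbered run only. Some of these calls were other genes. Of the 11, 6 were among the calls in saline libraries, 3 in males, 2 in females and 2 in the lower-numbered run. The number called lower was 2 with the run added, 3 in saline libraries only, 1 in AVP libraries only and 1 in female libraries only. Leaving out each library in turn gave 6 to 13 genes higher and 0 to 1 lower; without saline male 5 it was 6, and without saline female 7 it was 7. The single lower genes were Gm25788 without AVP male 8 and Scoc without AVP male 9.

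With each library left out, the share of Ttr-high libraries was -4.17 to 14.3 percentage points higher with AVP and -4.17 to 14.3 higher in females, and 54.2 to 71.4 higher in the lower-numbered run. The negative values came without AVP male 1, AVP female 3 or AVP female 11 for treatment, and without AVP female 3, saline female 7 or AVP female 11 for gender. The Ttr difference between treatments was -0.24 to 1.25 over all libraries, and it turned negative without AVP female 3, AVP female 11 or saline male 13 (-0.24, -0.12 and -0.0077); in males it was -3.20 to -0.22 and in females 2.001 to 5.63. Genes called for AVP numbered 0 to 2 without the class and 0 to 1 with it; the calls came without AVP female 10 and were Plxna1 in both fits and Slc4a8 in the former. The cause of these changes was not tested. No paired analysis was possible because the labels share no replicate number between groups. Depth is unknown, so no limit from counting error can be given.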
